A study of Mus musculus with 10 samples.

Results

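The genes described here encode chaperones, protein disulfide isomerases and signalling factors of the endoplasmic reticulum (ER). They were listed by name, and all 10 (Hspa5, Hsp90b1, Calr, Canx, Pdia4, Pdia6, Xbp1, Atf6, Sdf2l1 and Dnajb9) were found among the 54232 genes of the deposited table by their Ensembl identifiers. RNA was sequenced from the gastrocnemius muscle of the calf (with the plantaris, by the study's text) of 5 homozygous desmin knock-out mice (Des -/-) and 5 wild-type littermates (Des wt/wt), all from the strain B6J.129Sv-Destm1Cba/Cscl and 3 months old. In this line Des is disrupted in the germline, so the muscle fibers and every other cell of the knock-out mice carry the disrupted gene. The methods describe RNA pooled from 5 muscles per genotype, whereas the table gives the mice separately, and its columns are treated here as 10 single mice. The deposited values are regularized log (rlog) values of DESeq2, a log2 expression scale that corrects for library size and shrinks each gene's values towards their average, so differences are smaller than log2 fold changes of counts. The read depth of each mouse is unknown from such values.

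The ER folds membrane and secreted proteins. Hspa5 (BiP) and Hsp90b1 (GRP94) are its main luminal chaperones, calnexin and calreticulin hold glycoproteins by their sugars, and the protein disulfide isomerases form and rearrange disulfide bonds. When unfolded proteins accumulate, the sensors IRE1, PERK and ATF6 start the unfolded protein response (UPR), in which spliced Xbp1 and cleaved ATF6 switch on the chaperone genes. In muscle fibers the ER is continuous with the sarcoplasmic reticulum, the calcium store for contraction.

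Many chaperone genes of this family carry the ER stress element (ERSE), to which ATF6 binds together with NF-Y, and the promoters that hold it are shown first because a part of the members has it. It was searched as CCAAT, then any 9 bases, then CCACG, on both strands of the RefSeq promoters of GRCm38.p6, which run from 250 bases before to 50 bases after the transcription start. RefSeq had a promoter for 9 of the 10 genes, all but Atf6. The element was found in 5 of the 9, whereas 0.119% of all 32851 promoters (39 of them) held it. Hsp90b1 had it at 2 places and Hspa5, Canx, Calr and Pdia6 at 1 place each. The 250 bases upstream of the start of these 5 genes follow, from 5′ to 3′ on the strand of the gene, with each element in capitals.
Hspa5: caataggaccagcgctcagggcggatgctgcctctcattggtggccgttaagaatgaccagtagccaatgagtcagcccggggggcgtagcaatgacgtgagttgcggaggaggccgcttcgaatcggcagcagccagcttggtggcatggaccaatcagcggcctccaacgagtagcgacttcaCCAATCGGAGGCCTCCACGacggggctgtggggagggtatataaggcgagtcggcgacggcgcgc
Hsp90b1: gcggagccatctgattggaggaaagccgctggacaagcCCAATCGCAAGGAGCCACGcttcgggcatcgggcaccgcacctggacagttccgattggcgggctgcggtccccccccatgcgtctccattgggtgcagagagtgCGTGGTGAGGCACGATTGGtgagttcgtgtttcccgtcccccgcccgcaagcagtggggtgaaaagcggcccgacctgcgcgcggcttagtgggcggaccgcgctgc
Canx: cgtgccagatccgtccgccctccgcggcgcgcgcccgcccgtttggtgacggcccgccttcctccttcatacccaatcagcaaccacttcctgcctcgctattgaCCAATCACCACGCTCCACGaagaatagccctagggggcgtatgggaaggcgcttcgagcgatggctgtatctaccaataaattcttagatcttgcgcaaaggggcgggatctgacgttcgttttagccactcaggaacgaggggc
Calr: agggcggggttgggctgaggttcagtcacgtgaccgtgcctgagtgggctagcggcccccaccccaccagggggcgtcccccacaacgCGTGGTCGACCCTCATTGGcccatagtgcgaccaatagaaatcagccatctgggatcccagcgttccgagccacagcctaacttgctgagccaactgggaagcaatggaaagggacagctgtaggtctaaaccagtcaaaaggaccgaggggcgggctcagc
Pdia6: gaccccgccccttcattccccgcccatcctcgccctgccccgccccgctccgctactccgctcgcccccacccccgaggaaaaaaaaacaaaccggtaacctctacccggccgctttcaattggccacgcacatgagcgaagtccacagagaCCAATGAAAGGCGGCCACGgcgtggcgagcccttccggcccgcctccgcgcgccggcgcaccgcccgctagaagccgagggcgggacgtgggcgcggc

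The element of Hspa5 lay at positions -65 to -47 from the start (chr2:34772025-34772043) and that of Pdia6 lay at -98 to -80 (chr12:17266491-17266509). In Canx it lay at -145 to -127 (chr11:50325800-50325818). Calr had it on the opposite strand, at -162 to -144 (chr8:84847075-84847093). The elements of Hsp90b1 lay at -212 to -194 on the strand of the gene (chr10:86705638-86705656) and at -107 to -89 on the opposite strand (chr10:86705533-86705551). GENCODE places the outer end of Hspa5, Hsp90b1, Pdia6, Calr and Dnajb9 further upstream than RefSeq, so parts of these windows are transcribed in its annotation. For Dnajb9 this holds for all of the upstream window (chr12:44210069-44210318), since its GENCODE gene reaches to 44210326. The bases upstream of that end were not searched. The related element ERSE-II (ATTGG, any 1 base, CCACG) was present in 0.0365% of all promoters and the site TGACGTGG, to which XBP1 and ATF6 bind, in 0.676%. Neither was found in the 9 windows. All 3 motifs share the letters CCACG or their complement, so they can overlap. A match of letters is not evidence of binding.

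**Figure D1:**
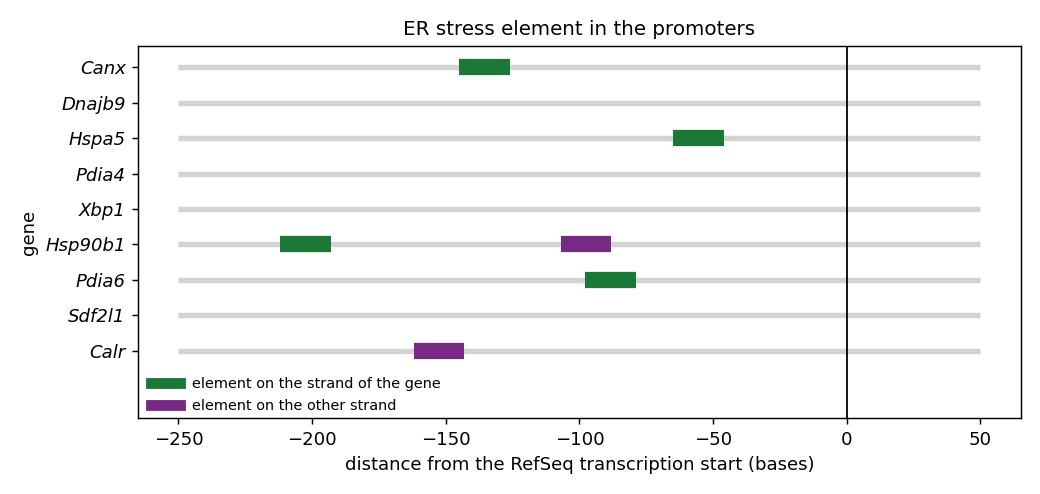
Position of the ER stress element in the RefSeq promoters of 9 genes, with the distance from the transcription start in bases on the horizontal axis and 1 grey line per gene. Coloured blocks are matches on the strand of the gene (green) or on the other strand (purple). Hsp90b1 has 2 blocks, Hspa5, Canx, Calr and Pdia6 have 1, and Dnajb9, Pdia4, Xbp1 and Sdf2l1 have none.

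Of the whole table, 14289 genes whose mean rlog value reached log2(10) entered the limma fit, and p-values were adjusted over all of them. Des had a mean of 16.58 in wild-type and 11.84 in knock-out mice (log2 difference -4.73), and the highest knock-out value (11.89) was far below the lowest wild-type value (16.10). The fast muscle markers Myh4, Actn3 and Pygm had wild-type means of 20.58, 18.28 and 18.14. Transcripts of the Y chromosome were found in all 10 mice, with a mean rlog value of 4 genes between 9.52 and 10.62. Wild-type mouse 3 stood apart, with a mean correlation of 0.982 with the other wild-type mice, which had 0.989 to 0.991. Limma's sample weights were 0.1 for this mouse, 0.275 for wild-type mouse 4 and 0.793 to 4.21 for the rest. The counts of called genes that change without wild-type mouse 3, and the main descriptions of the members, are therefore given both ways.

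All 10 genes passed the expression limit, and all 10 had a mean above that of wild-type muscle in the knock-out mice, by 0.01 for Calr up to 0.71 for Canx on the log2 scale. Only Canx passed the test over all genes (1 of 10 higher), beside 7.7% of all tested genes that were higher at an adjusted p under 0.05. None of the 10 was lower, beside 5.99% of all tested genes, and none was lower at an unadjusted p under 0.05. The median difference of the 10 genes was 0.26, and that of all tested genes was -0.0029. An unadjusted p under 0.05 was found for 6 of the 10 genes, all of them higher, and for 27.6% of all tested genes, higher and lower together. In Canx and Pdia6 all 5 knock-out values lay above all 5 wild-type values, a separation in this direction that 7.45% of tested genes showed.

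Without wild-type mouse 3 the picture changed in number but not in direction. Then 4 of the 10 genes rose (Canx, Xbp1, Hspa5 and Pdia6), beside 9.34% of all tested genes, and the median difference of the 10 was 0.25. Leaving out wild-type mouse 4 as well, a choice made after seeing the data, gave the same 4 genes, beside 11.8% of all tested genes.

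**Figure D2:**
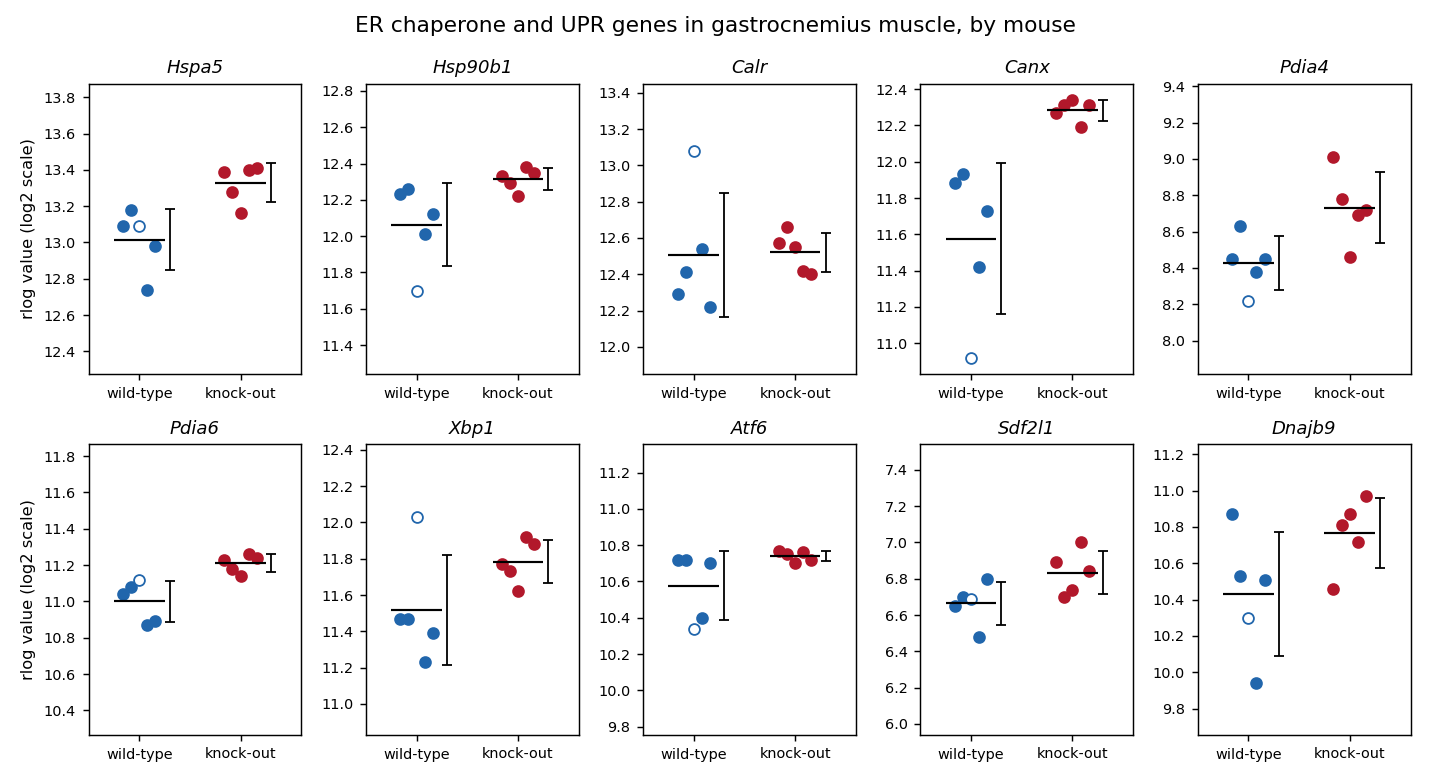
Each panel shows the rlog values (log2 scale, each panel spans the same 1.6 units) of 1 gene in 5 wild-type (blue) and 5 desmin knock-out mice (red); horizontal lines are means, bars are ± SD (n = 5), and the open circle is wild-type mouse 3. The groups do not overlap for Canx and Pdia6, and wild-type mouse 3 lies far above the other wild-type mice for Calr and Xbp1 and lowest for Canx and Hsp90b1.

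Xbp1 (ENSMUSG00000020484, chromosome 11, 5520659 to 5525893) encodes the transcription factor whose mRNA is spliced by IRE1 during the UPR. The values count all its transcripts, so spliced and unspliced forms cannot be told apart. Its rlog values were 11.77, 11.73, 11.62, 11.92 and 11.88 in knock-out mice 1 to 5 and 11.47, 11.47, 12.03, 11.23 and 11.39 in wild-type mice 1 to 5. Wild-type mouse 3 was the highest of all 10 mice, and all 5 knock-out mice lay above the other wild-type mice. With all mice the log2 difference was 0.27 (standard error, SE, 0.13, limma, adjusted p = 0.21). Without wild-type mouse 3 it was 0.39 (SE 0.08, limma, adjusted p = 0.00372), the smallest adjusted p of the members after Canx.

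Atf6 (ENSMUSG00000026663, chromosome 1, 170704674 to 170867771) encodes the membrane-bound sensor that is cleaved in the Golgi and then acts as a transcription factor. Knock-out mice had values in a narrow band, 10.77, 10.75, 10.70, 10.76 and 10.72. Wild-type mice had 10.72, 10.72, 10.34, 10.40 and 10.70. Mice 3 and 4 were the low wild-type mice, and the other 3 lay within or next to the knock-out band. The log2 difference was 0.17 (SE 0.10, limma, adjusted p = 0.288), and without both of these mice it was 0.03.

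Hspa5 (ENSMUSG00000026864, chromosome 2, 34771970 to 34777547) encodes BiP, the HSP70 chaperone that also holds the UPR sensors inactive. It had 13.39, 13.28, 13.16, 13.40 and 13.41 in knock-out mice and 13.09, 13.18, 13.09, 12.74 and 12.98 in wild-type mice. The means were 13.33 ± 0.10 (SD, n = 5) and 13.02 ± 0.17 (SD, n = 5). Knock-out mouse 3 was the only knock-out mouse that did not exceed all wild-type mice. The log2 difference of 0.31 (SE 0.10), which is 1.24-fold on the rlog scale, did not pass over all genes (limma, adjusted p = 0.0608). An exact two-sided permutation test of the 10 values gave p = 0.0159, where 0.00794 is the smallest value that 5 mice against 5 allow. Without wild-type mouse 3 the difference was 0.33 and passed (limma, adjusted p = 0.0262).

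Hsp90b1 (ENSMUSG00000020048, chromosome 10, 86690209 to 86705509) encodes GRP94, the HSP90 of the ER, which folds integrins and Toll-like receptors among others. Its knock-out values were 12.33, 12.29, 12.22, 12.38 and 12.35. Its wild-type values were 12.23, 12.26, 11.70, 12.01 and 12.12. Again knock-out mouse 3 was the only one within the wild-type range, and wild-type mouse 3 was the lowest. The log2 difference was 0.25 (SE 0.11, limma, adjusted p = 0.146) and 0.16 without wild-type mouse 3 (limma, adjusted p = 0.14). The pseudogene 1810014B01Rik overlaps its exons on the opposite strand and had a log2 difference of -0.15 (SE 0.09). The library kit kept the strand, but whether reads were counted by strand is not given in the sources used here.

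Dnajb9 and Sdf2l1 are partners of Hspa5. Dnajb9 (ENSMUSG00000014905, chromosome 12, 44205559 to 44210326) encodes ERdj4, a J-domain protein and a known target of Xbp1, and Sdf2l1 (ENSMUSG00000022769, chromosome 16, 17130138 to 17132383) encodes a component of an ER chaperone complex. Dnajb9 had 10.46, 10.81, 10.87, 10.72 and 10.97 in knock-out mice and 10.87, 10.53, 10.30, 9.94 and 10.51 in wild-type mice. Both groups spread widely and overlapped, since wild-type mouse 1 was as high as knock-out mouse 3 and knock-out mouse 1 lay below 3 wild-type mice. Its log2 difference of 0.33 (SE 0.15, limma, adjusted p = 0.174) fell to 0.13 without wild-type mice 3 and 4. Sdf2l1 was the least expressed member, with 6.89, 6.70, 6.74, 7.00 and 6.84 in knock-out and 6.65, 6.70, 6.69, 6.48 and 6.80 in wild-type mice. The groups overlapped, and the log2 difference was 0.17 (SE 0.10, limma, adjusted p = 0.313). Lower rlog values are drawn more strongly to the mean by the transformation, and those of Sdf2l1 were the lowest of the 10 members.

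Canx (ENSMUSG00000020368, chromosome 11, 50293961 to 50325673) encodes calnexin, the membrane-bound lectin chaperone. It rose in desmin knock-out muscle. Its values were 12.27, 12.31, 12.34, 12.19 and 12.31 in knock-out mice and 11.88, 11.93, 10.92, 11.42 and 11.73 in wild-type mice, without overlap. Knock-out mice lay close together, while wild-type mice spread widely, with mice 3 and 4 lowest. The means of 12.28 ± 0.06 (SD, n = 5) and 11.58 ± 0.42 (SD, n = 5) differ by 0.71 (SE 0.16, 1.63-fold on the rlog scale, limma, adjusted p = 0.0102). The exact two-sided permutation test gave p = 0.00794. The difference was 0.54 without wild-type mouse 3 (SE 0.10, limma, adjusted p = 0.00154) and 0.44 without wild-type mice 3 and 4 (limma, adjusted p = 4.2e-04). Canx kept an adjusted p under 0.05 in all 19 alternative fits, from 4.2e-04 to 0.0378.

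Calr (ENSMUSG00000003814, chromosome 8, 84841850 to 84846934) encodes calreticulin, the soluble lectin chaperone and calcium buffer of the lumen. Its values were 12.57, 12.66, 12.55, 12.42 and 12.40 in knock-out mice and 12.29, 12.41, 13.08, 12.54 and 12.22 in wild-type mice. Wild-type mouse 3 was the highest of all mice and the groups overlapped. The log2 difference was 0.01 (SE 0.14, limma, adjusted p = 0.978) and 0.15 without wild-type mouse 3 (SE 0.08, limma, adjusted p = 0.245). It was the only member whose sign changed between fits. In wild-type mouse 3, Calr was 0.71 above and Canx 0.82 below the mean of the other wild-type mice. The difference of Canx minus Calr within a mouse, from which any shift common to all genes of a mouse drops out, was -0.30, -0.34, -0.20, -0.22 and -0.09 in knock-out mice. In wild-type mice it was -0.40, -0.48, -2.16, -1.12 and -0.49, below every knock-out mouse. No test is given for it, since it was picked with the values in view.

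Pdia4 (ENSMUSG00000025823, chromosome 6, 47796141 to 47813430) and Pdia6 (ENSMUSG00000020571, chromosome 12, 17266545 to 17284770) encode the protein disulfide isomerases ERp72 and P5, of which P5 also acts on the sensors IRE1 and PERK. Pdia6 had 11.23, 11.18, 11.14, 11.26 and 11.24 in knock-out mice and 11.04, 11.08, 11.12, 10.87 and 10.89 in wild-type mice. All 5 knock-out values lay above the wild-type values, although by a small step. The log2 difference was 0.21 (SE 0.08, limma, adjusted p = 0.104, exact permutation p = 0.00794) and 0.24 without wild-type mouse 3 (limma, adjusted p = 0.0246). Pdia4 had 9.01, 8.78, 8.46, 8.69 and 8.72 in knock-out mice and 8.45, 8.63, 8.22, 8.38 and 8.45 in wild-type mice. Only knock-out mouse 3 lay within the wild-type range. Its log2 difference was 0.31 (SE 0.12, limma, adjusted p = 0.099), and it missed the threshold in each of 19 alternative fits, with adjusted p from 0.0549 to 0.231.

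**Figure D3:**
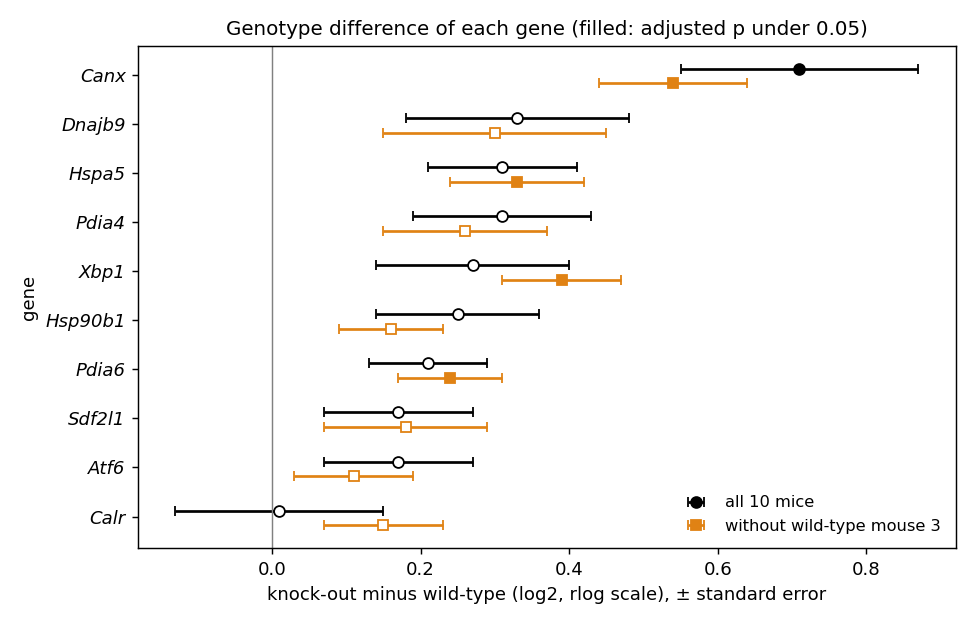
Log2 difference (knock-out minus wild-type, rlog scale) of each gene ± SE, with all 10 mice (black circles) and without wild-type mouse 3 (orange squares); filled symbols have an adjusted p under 0.05 from limma. With all mice only Canx (0.71) is filled, and without wild-type mouse 3 Xbp1 (0.39), Hspa5 (0.33) and Pdia6 (0.24) are filled too.

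Levels can be set side by side only per transcript length, so the rlog value minus log2 of the exon length in kilobases was used for the order of genes. In wild-type muscle Calr (10.98) and Hspa5 (10.94) were highest, with Calr ahead in 2 of 5 mice (difference 0.05 ± 0.38, SD). Hspa5 exceeded Hsp90b1 in all 5 (0.89 ± 0.26). Hsp90b1 (10.05), Xbp1 (9.82) and Canx (9.35) followed, each higher than the next in 4 or 5 of 5 mice but by less than 1 SD of the difference. Pdia6 (9.09) and Dnajb9 (9.08) were within their spread of each other (0.01 ± 0.31). Below a step of 1.71 came Atf6 (7.37), Pdia4 (7.16) and Sdf2l1 (6.52), in the same order in all 5 wild-type mice. Per length, Calr exceeded 95% of all tested genes and Sdf2l1 52.5%. Leaving out wild-type mouse 3, Hspa5 (10.92) stood above Calr (10.84) and Dnajb9 (9.11) above Pdia6 (9.06), each in 3 of 4 mice and within the spread. The steps from Hsp90b1 to Xbp1 (0.45 ± 0.03) and from Xbp1 to Canx (0.18 ± 0.12) were then beyond 1 SD and in the same direction in all 4 mice. In knock-out muscle Hspa5 had a mean level per length of 11.25, Calr 10.99 and Canx 10.05.

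The SD over 5 mice was larger in wild-type for 8 of the 10 genes, all but Pdia4 and Sdf2l1, and for 82.9% of all tested genes. With wild-type mouse 3 left out it was again 8 of the 10, with Sdf2l1 among them and Xbp1 no longer, and 68.4% of tested genes. The lowest of the 10 mice was a wild-type mouse for all 10 genes. It was mouse 4 for 5 genes and mouse 3 for 4 genes, the mice with the smallest sample weights (0.275 and 0.1). How often a wild-type mouse was lowest over all tested genes was not counted. After removal of each gene's mean, the profiles over the 10 mice that were most alike were those of Hsp90b1 and Atf6 (root mean square difference 0.0818 on the log2 scale) and of Hspa5 and Pdia6 (0.0864). The farthest pair was Calr and Canx (0.589). When wild-type mouse 3 was left out, the nearest were Hsp90b1 and Pdia6 (0.0472), Calr and Canx were at 0.281, and Calr and Dnajb9 (0.343) were farthest. Among all tested genes, the profiles nearest to Hspa5 were those of Tyms (0.0564), Itgb1 (0.0655), the non-coding 1700101I11Rik (0.0762), 4930509E16Rik (0.0766) and Pdia3 (0.0811). Itgb1 encodes the integrin β1 subunit and Pdia3 the disulfide isomerase ERp57, which works with calnexin and calreticulin. Tyms and both Rik genes had rlog values between 3.38 and 5.12, where shrinkage is strong. In the mice other than wild-type mouse 3, Tyms was still among the nearest 5 (0.0575), and the other 4 genes named here were not. These distances describe mice that differ in genotype.

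**Figure D4:**
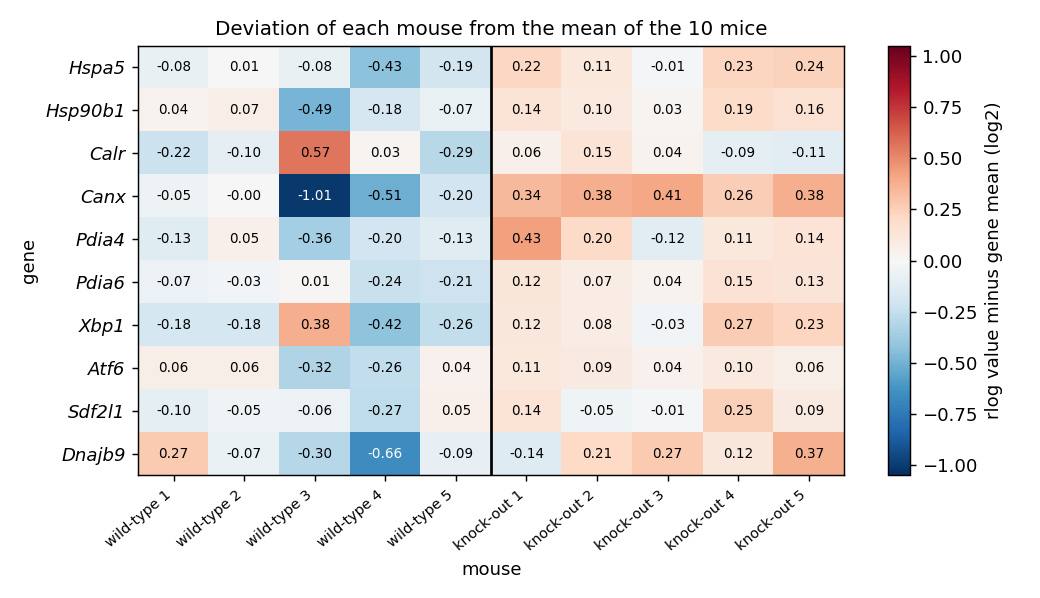
Rlog value of each mouse (columns) minus the mean of the 10 mice for each gene (rows), on a log2 scale, red above and blue below the mean. Knock-out columns are mostly red, wild-type mouse 4 is mostly blue, and wild-type mouse 3 ranges from -1.01 for Canx to 0.57 for Calr.

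The other genes of the pathway were taken as lists. Beside their counts without wild-type mouse 3, 1335 of 14293 tested genes (9.34%) were higher and 1159 lower in that fit (limma). The sensors and signalling genes of the UPR (20 genes, 19 tested) had a median difference of 0.15 (0.10 without wild-type mouse 3, with 2 genes higher). After adjustment 1 gene was higher (5.26%, beside 7.7% of all tested genes) and 0 lower (beside 5.99%) (limma). An unadjusted p under 0.05 was found for 6 (31.6%, beside 27.6% of all tested genes, limma). The gene that rose with all mice was Wfs1, which encodes wolframin, an ER membrane protein that takes part in calcium handling. Wfs1 averaged 12.36 ± 0.17 (SD, n = 5) without desmin and 11.63 ± 0.19 (SD, n = 5) with it, a log2 difference of 0.73 (SE 0.11, limma, adjusted p = 6.8e-04), without overlap. Ddit3, the gene of the transcription factor CHOP downstream of PERK, had values of 9.22 to 9.64 in knock-out mice and 8.08 to 9.20 in wild-type mice. These groups did not overlap, but the log2 difference of 0.53 did not pass with all mice (limma, adjusted p = 0.0698), and without wild-type mouse 3 it was 0.34 and passed (limma, adjusted p = 0.0311). Trib3, which CHOP induces, differed by 0.41 (limma, adjusted p = 0.0989), and Bcl2l11, the pro-apoptotic BIM, had 0.46 (limma, adjusted p = 0.11). The lowest was Creb3l1, a transcription factor related to ATF6, with -0.21 (limma, adjusted p = 0.434).

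Other folding factors of the ER (34 genes, all tested) were mixed, with a median difference of -0.01. Of them 2 were higher (5.88%, beside 7.7% of all tested genes) and 0 lower (beside 5.99%) (limma). An unadjusted p under 0.05 was found for 8 (23.5%, beside 27.6%, limma). Manf, a small ER protein that binds BiP, rose from 9.53 ± 0.16 (SD, n = 5) to 9.98 ± 0.05 (SD, n = 5), a log2 difference of 0.45 (SE 0.09, limma, adjusted p = 0.00498). Its knock-out values were 9.91 to 10.07 and its wild-type values 9.38 to 9.76. Fkbp11, a prolyl isomerase of the ER, had 0.41 (limma, adjusted p = 0.0362), with values of 5.25 to 5.53 in knock-out and 4.72 to 5.21 in wild-type mice. It missed the threshold without any 1 of knock-out mice 1, 3, 4 and 5 or wild-type mice 2, 4 and 5, with adjusted p up to 0.0888 (limma). Pdia3 differed by 0.28 (limma, adjusted p = 0.0512) and Creld1 had -0.35 (limma, adjusted p = 0.056). Without wild-type mouse 3, 4 genes were higher and 1 lower, Pdia3 among the higher (limma, adjusted p = 0.0177), and the median turned to 0.04.

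Genes of ER-associated degradation (28 genes, 27 tested), which carry misfolded proteins to the proteasome, had a median difference of -0.07. With all mice 1 was higher (3.7%, beside 7.7% of all tested genes) and 0 lower (beside 5.99%) (limma). An unadjusted p under 0.05 was found for 9 (33.3%, beside 27.6%, limma). Ube2g2, a ubiquitin-conjugating enzyme of this route, rose with a log2 difference of 0.45 (SE 0.09, limma, adjusted p = 0.00574), and its knock-out values of 12.45 to 12.64 lay above the wild-type values of 11.84 to 12.25. Selenos had 0.34 (limma, adjusted p = 0.0655) and Aup1, the lowest, -0.45 (limma, adjusted p = 0.127). Ube2j1 and Man1b1 had all 5 knock-out values below all wild-type values, with log2 differences of -0.36 and -0.24, but did not pass (limma, adjusted p = 0.0798 and 0.0884). This list had 3 genes higher and 1 lower without wild-type mouse 3, with a median of -0.04. Selenos (0.39, limma, adjusted p = 0.0204) and Ube2j1 (-0.23, limma, adjusted p = 0.0248) then passed.

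Among genes of translocation into the ER and N-glycosylation (31 genes, all tested) the median difference was 0.05. In this list 2 genes were higher (6.45%, beside 7.7% of all tested genes) and 1 lower (3.23%, beside 5.99%) (limma). Of the 31 genes, 9 had an unadjusted p under 0.05 (29%, beside 27.6% of all tested genes, limma). Tram1 and Sec63, which act at the translocon, rose by 0.49 (limma, adjusted p = 0.0165) and 0.30 (limma, adjusted p = 0.0173). Srpr, which encodes the α subunit of the signal recognition particle receptor, fell from 13.22 ± 0.28 (SD, n = 5) to 12.47 ± 0.07 (SD, n = 5), a log2 difference of -0.75 (SE 0.12, limma, adjusted p = 0.00108). Its knock-out values were 12.38 to 12.56 and its wild-type values 13.07 to 13.72. Srp54a, a subunit of the signal recognition particle, had -0.37 (limma, adjusted p = 0.0835). Without wild-type mouse 3, 5 genes of this list were higher and 1 lower, with a median of 0.10. Without knock-out mouse 5, Tram1 (limma, adjusted p = 0.0525) and Sec63 (limma, adjusted p = 0.0554) missed the threshold, as Sec63 did without knock-out mouse 2 (limma, adjusted p = 0.052).

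Genes of collagen folding and modification (19 genes, 18 tested) had a median difference of -0.06. Here 3 genes were higher (16.7%, beside 7.7% of all tested genes) and 1 lower (5.56%, beside 5.99%) (limma). The counts were again 3 and 1 without wild-type mouse 3, and the median turned to 0.01. With all mice, 7 had an unadjusted p under 0.05 (38.9%, beside 27.6% of all tested genes, limma). P3h2, a prolyl 3-hydroxylase, had the largest difference of all ER lists, 1.46 (SE 0.17, limma, adjusted p = 8.3e-05), with 8.02 to 8.63 in knock-out and 6.27 to 7.18 in wild-type mice. Fkbp7 also rose (0.55, limma, adjusted p = 0.0172). Tmem38b, an ER potassium channel, was the third (0.26), at the threshold itself, and it missed it in 7 of 10 fits with 1 mouse left out, namely any knock-out mouse or wild-type mouse 4 or 5 (adjusted p up to 0.118 from limma). P4ha2, a subunit of collagen prolyl 4-hydroxylase, was lower with a log2 difference of -0.52 (limma, adjusted p = 0.00591).

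The ER stress element was found in promoters of 37 genes, of which 33 were in the table and 18 were tested, the 5 genes named above included. This list was made after the values had been seen. Of the 18, 4 rose (22.2%, beside 7.7% of all tested genes) and 0 fell (limma), 8 had an unadjusted p under 0.05 (44.4%, beside 27.6%), and the median difference was 0.18. In the fit without wild-type mouse 3, 6 rose (beside 9.34% of all) and the median was 0.15. Besides Canx, the genes that rose with all mice were Tdrd9, a gene of the germline piRNA pathway (1.24, limma, adjusted p = 1.2e-05), Spats2l (0.40, limma, adjusted p = 0.0334) and Xlr3a (0.81, limma, adjusted p = 0.0161). Xlr3a is a gene of a family of near-identical copies among which reads can be split. Spats2l missed the threshold without any 1 of knock-out mice 1, 3, 4 and 5 or wild-type mice 1, 2 and 4, with adjusted p up to 0.0871 (limma). Without the 5 chaperone genes the median of the 13 others was 0.12, with 3 higher (23.1%, beside 7.7% of all tested genes, limma). Of these 13, 4 had an unadjusted p under 0.05 (30.8%, beside 27.6% of all tested genes, limma). The lowest was Acacb, with -0.24 (limma, adjusted p = 0.159).

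**Figure D5:**
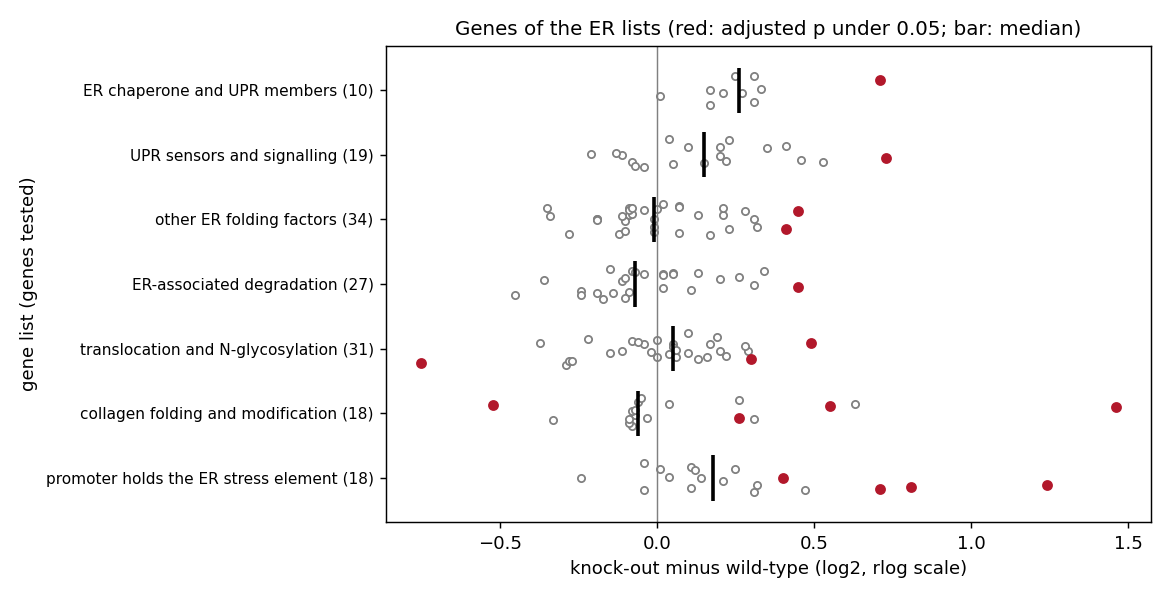
Log2 difference (knock-out minus wild-type, rlog scale) of every tested gene in the ER lists, 1 point per gene, with the number tested in brackets; red points have an adjusted p under 0.05 from limma and bars are medians. The 10 chaperone and UPR genes have a median of 0.26, and the medians of the other lists lie between -0.07 and 0.18. The list with 0.18, of promoters that hold the ER stress element, includes 5 of the 10 genes and has 0.12 without them.

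In whole muscle, fewer cells of a type and less RNA per cell cannot be told apart, so markers of the cells present are given beside these results, as the range of log2 of the summed values of each list. Beside the counts that follow, 7.7% of all tested genes were higher and 5.99% lower (9.34% higher without wild-type mouse 3, limma). Muscle markers (12, none at 0) were 22.46 to 22.66 in knock-out and 22.72 to 23.70 in wild-type mice, with 3 lower and 0 higher (3 lower and 1 higher without wild-type mouse 3). Of the lower ones, Myh4 lost its call in 8, Actn3 in 2 and Pygm in 0 of 10 fits with 1 mouse left out (limma). Fibroblast markers (12, none at 0) were 14.97 to 15.44 and 14.42 to 15.42, with 5 of 12 higher (3 without wild-type mouse 3). Among the higher ones, Col1a1 lost its call in 7 and Col3a1 in 8 of 10 such fits, and Col1a2 and Lum in 0 (limma). Endothelial markers (10, none at 0) were 12.31 to 12.71 and 12.83 to 13.21, with 7 of 10 lower (6 without wild-type mouse 3). Plasma cells are rich in ER, and their markers (10, of which 7 were tested) were 11.72 to 12.05 and 12.61 to 13.41, with 2 lower (1 without wild-type mouse 3). The sum came mostly from Ighm (11.57 to 11.95 in knock-out and 12.50 to 13.37 in wild-type mice). The other lower gene, Igkc, lost its call in 9 of 10 fits with 1 mouse left out (limma). Of the 7 tested markers, 2 had a positive difference. Macrophage markers (11.55 to 12.04 and 11.56 to 11.90) had 0 of 12 changed (limma, 1 at an unadjusted p under 0.05). Red cell markers (11.50 to 12.09 and 12.01 to 13.38) had 2 of 6 tested genes lower (3 without wild-type mouse 3). Immediate-early transcripts, which can respond to handling, were 14.13 to 14.38 and 13.61 to 14.77, with 6 of 15 higher. The part of these lists in the differences of the ER genes was not tested.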

How the data were processed

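The authors sequenced stranded mRNA libraries of gastrocnemius muscle. Per the labels' processing notes, which list tools without their roles, cutadapt 2.5, STAR 2.5.4a, featureCounts (Subread 1.6.1) and DESeq2 were used by the authors with GRCm38. The deposited table holds rlog values of DESeq2 on a log2 scale, with the settings of the transformation not given in the sources used here. The authors tested counts with DESeq2. On the rlog values, limma 3.58.1 in R 4.3.3 was fitted to the log2 values (lmFit and eBayes with a trended prior, two-sided, Benjamini-Hochberg over the 14289 genes whose mean reached log2(10)). Exact permutation tests over 252 assignments used scipy 1.17.1. Symbols (54079 of 54232 genes) and positions came from GENCODE M21. The p-values measure the spread between these columns only. The fit was tested on simulated data with independent normal errors of equal spread in every mouse. That test does not cover an outlying mouse such as wild-type mouse 3. The members, lists and tests were chosen with earlier results of these data known. The genes named are the members, of each pathway list up to 4 genes of smallest adjusted p and those of largest and smallest difference, Des, and the 5 profiles nearest to Hspa5. The muscle, fibroblast and plasma cell markers, the genes of the promoter list and the overlapping 1810014B01Rik were named after their values were seen. Alternatives were sample weights, quantile normalization, other expression limits, median centring, an untrended prior, the replicate number as a block, Y-linked transcripts as a covariate, other thresholds and mice left out.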

Additional observations from a re-analysis of the deposited data

How the results depend on the processing

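With 1 mouse left out at a time, 827 to 1335 genes were higher and 560 to 1159 lower, and 1 to 4 of the 10 ER genes were higher and 0 lower. The count of lower genes was 560 without knock-out mouse 5, and the count of 4 came without wild-type mouse 3. Sample weights gave 2093 genes higher (14.6%) and 2127 lower, and 4 of the 10 higher. Leaving out wild-type mice 3 and 4 together, chosen after seeing the data, gave 1685 higher (11.8%) and 1715 lower, and 4 of the 10 higher. Quantile normalization gave 4 of the 10, beside 1090 genes higher in all (7.63%, as against 7.7%). An adjusted p under 0.01 gave 623 higher and 371 lower genes and 0 of the 10, and one under 0.1 gave 1501 higher and 1286 lower genes and 3 of the 10 higher. Fkbp11 is below the limit of log2(50). The difference of Calr turned to -0.03 with median centring and lay between -0.06 and 0.15 with 1 mouse left out at a time. The cause of these shifts was not tested. In the other 9 genes the direction was the same in all 19 fits. Hspa5, Pdia6 and Xbp1 each passed in 4 of the 19. Median centring lowered the share of calls that were higher from 56.2% to 49%. Called genes ranged from 1 to 3 higher for UPR signalling, and 1 to 5 higher and 0 to 3 lower for folding factors. For degradation the range was 1 to 3 higher and 0 to 4 lower, and for translocation 0 to 8 higher and 1 to 3 lower. Collagen folding had 1 to 5 higher and 1 to 3 lower, and the promoter list 1 to 6 higher and 0 to 1 lower. Over the same settings, 623 to 2093 of all tested genes were higher and 371 to 2127 lower. The 8 of translocation came with sample weights, beside 14.6% of all tested genes higher in that fit.

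The replicate numbers were not used as pairs in the main fit. Same-numbered mice had correlations of their deviations between -0.2189 and 0.0673, which does not tell whether the mice were paired. With the replicate block 913 genes were higher and 666 lower, and 1 of the 10 ER genes was higher. The depth behind each value is unknown, which leaves the counting error of the low gene Sdf2l1 unknown.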
